A study of Mus musculus with 6 samples.

Results

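Interleukins are the secreted proteins through which white blood cells instruct one another, and each acts through receptor chains on the receiving cell. Genes of this system were followed in mouse Treg, regulatory T lymphocytes that depend on the transcription factor Foxp3 and hold immune responses in check. Members were all genes on the array whose single annotated symbol begins with Il and a number, leaving out the chains Il2ra, Il2rb, Il2rg and Il7r and the cytokine Il10. The rule found 62 of the 12393 genes measured: 30 ligands, 28 receptor chains, 3 soluble inhibitors and the enzyme gene Il4i1. It used names alone, not measured values.

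The 6 arrays carried RNA of sorted CD4+YFP+ cells of C57BL/6 background, 1 array a sample. The 3 USP7-titled arrays are described in the series text as Treg of fl-Usp7/Foxp3cre mice, in which a Cre recombinase named for Foxp3 would delete a floxed Usp7 allele, whereas their genotype field reads fl-HDAC11/Foxp3cre. The 3 control arrays carry B6_WT titles, which name no Cre allele, and the genotype Foxp3cre. By the genotype fields, then, both groups bear the Cre allele, and both are labelled as sorted on YFP. Usp7 is a deubiquitinase, an enzyme that takes ubiquitin off other proteins. Age and sex of the mice are not in the labels, and the text calls the samples independent without naming animals, so the tests measure the spread among the samples given, which may be technical.

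Several facts of the whole series bear on every value below. Usp7 read 10.54, 10.69 and 10.76 on the log2 scale in USP7-titled arrays, against 11.69, 11.73 and 11.61 in controls (-1.01, limma adjusted p = 1.32e-06). Hdac11, the other gene named in the labels, was dim and read 5.65 to 6.04 in USP7-titled arrays and 6.20 to 6.65 in controls (-0.58, limma adjusted p = 0.0154). Foxp3, which defines Treg, read 6.85, 7.29 and 6.87 in USP7-titled arrays, against 12.82, 13.13 and 12.99 in controls. The USP7-titled readings, all from a single probe set, lie within the range of genes restricted to other organs. By this marker alone those arrays do not match their Treg label, and the reason was not tested. Other genes that Treg express strongly stayed bright: Il2ra averaged 12.68 in USP7-titled arrays and 12.85 in controls, Ctla4 12.17 and 12.53, Tnfrsf18 12.47 and 12.59, Tnfrsf4 11.99 and 11.96, and Ikzf2 10.84 and 11.05. The T cell gene Cd4 differed by only 0.01 (limma adjusted p = 0.773). The X-inactivation RNA Xist averaged 5.30 in USP7-titled arrays and 12.50 in controls, and the Y-linked Eif2s3y 10.15 and 4.50, so sex cannot be told apart from group. Of all genes, 17.0% were called higher and 15.9% lower in USP7-titled arrays (limma adjusted p under 0.05), 32.9% in all.

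As background, interleukin receptors fall into families that share a signalling chain. Receptors of the IL-6 family work through gp130, encoded by Il6st, and pass the signal through Janus kinases to STAT transcription factors. Chains for IL-12 and IL-18 are known for making T cells respond with interferon gamma, and IL-4 and IL-13 are the cytokines of type 2 immunity. Treg carry receptors for many of these signals.

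Chains of the IL-6 receptor family fell most, and chains of the IL-12 and IL-18 receptors rose. Because Il6st and Il6ra fell together and Il12rb2 and Il18rap rose together, the 250 bases before the start site of these 4 genes are shown, from RefSeq on build GRCm38.p6 in the direction of the gene. They are chr13:112463820-112464069 (plus strand) for Il6st, chr3:89913197-89913446 (minus strand) for Il6ra, chr6:67376189-67376438 (minus strand) for Il12rb2 and chr1:40515112-40515361 (plus strand) for Il18rap. Capitals mark a match to the STAT core motif TTCNNNGAA, which reads the same on both strands.
Il6st: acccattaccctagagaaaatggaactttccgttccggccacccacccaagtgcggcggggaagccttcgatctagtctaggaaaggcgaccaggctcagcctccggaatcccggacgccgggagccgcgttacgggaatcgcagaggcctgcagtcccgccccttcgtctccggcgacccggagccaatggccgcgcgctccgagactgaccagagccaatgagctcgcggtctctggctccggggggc
Il6ra: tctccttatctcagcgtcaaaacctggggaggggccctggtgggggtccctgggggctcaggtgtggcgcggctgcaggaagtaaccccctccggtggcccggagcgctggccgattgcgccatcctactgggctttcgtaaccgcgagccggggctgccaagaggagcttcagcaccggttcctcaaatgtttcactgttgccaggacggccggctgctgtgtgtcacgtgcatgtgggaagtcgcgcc
Il12rb2: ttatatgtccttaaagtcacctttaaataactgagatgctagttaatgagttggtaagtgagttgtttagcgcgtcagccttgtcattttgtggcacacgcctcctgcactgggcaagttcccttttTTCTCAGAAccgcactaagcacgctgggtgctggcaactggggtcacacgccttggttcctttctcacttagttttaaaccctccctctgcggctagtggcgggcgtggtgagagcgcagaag
Il18rap: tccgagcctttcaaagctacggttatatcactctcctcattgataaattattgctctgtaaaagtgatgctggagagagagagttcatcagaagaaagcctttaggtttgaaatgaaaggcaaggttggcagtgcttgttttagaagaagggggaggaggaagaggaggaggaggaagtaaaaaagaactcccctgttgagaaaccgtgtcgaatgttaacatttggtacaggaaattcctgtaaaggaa

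Of these 4 windows, the STAT motif stood in that of Il12rb2, from position -123 relative to the start site. The forkhead motif GTAAACA or its reverse TGTTTAC, the type of site that Foxp3 and its relatives bind, stood in 0 of the 4. Over the 62 windows that the table held for 49 members, 6 (9.68%) held the STAT motif and 2 (3.23%) the forkhead motif, in Il21r and Il33. Among all 32851 windows of the same length the shares were 7.02% and 3.17%. The windows of Il6st and Il6ra were rich in CpG, with 26 and 18 CpG pairs and a GC content of 66.0% and 65.2%. Those of Il12rb2 and Il18rap held 10 and 4 CpG pairs at 50.0% and 42.0% GC. Receptor windows had a median of 7 CpG pairs and ligand windows of 3, against 6 over all windows.

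Il6st encodes gp130, the chain shared by the receptors for IL-6, IL-11, IL-27, LIF and related cytokines. It read 10.83, 10.63 and 10.84 in USP7-titled arrays, against 11.94, 11.89 and 11.73 in controls. The groups were far apart, with a gap several times the spread within either. The change was -1.09 (SE 0.08, 95% interval -1.25 to -0.92, limma adjusted p = 1.46e-06), which left 47.1% of the control signal. Its other 2 probe sets fell by 1.01 and 0.98, so 3 of 3 gave the same fall. Of the 12393 genes, 112 fell by at least as much as Il6st.

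Il6ra, the chain that binds IL-6 itself, read 11.30, 11.32 and 11.17 in USP7-titled arrays and 12.17, 12.18 and 12.11 in controls. It fell in every USP7-titled array, by 0.90 on average (SE 0.06, limma adjusted p = 5.25e-07), and its other probe set fell by 0.88. Il27ra, which pairs with gp130 to receive IL-27, read 10.52, 10.73 and 10.52 in USP7-titled arrays against 11.48, 11.50 and 11.37 in controls. That is a change of -0.86 (SE 0.08, limma adjusted p = 8.53e-06), leaving 55.2% of the control signal. In a mixed RNA sample, fewer cells of a type and less RNA per cell cannot be told apart. These 3 chains kept their calls without any 1 of the 6 arrays. They also kept them when the arrays were scaled to the hybridization spikes, where they changed by -0.93, -0.74 and -0.70. Such spikes are control transcripts added to the hybridization mix, so this scaling does not correct for the amount of RNA put in. Il31ra, the IL-31 receptor chain and the gene beside Il6st, was dim and did not pass (-0.24, SE 0.12, limma adjusted p = 0.161), although its groups did not overlap.

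The IL-12 receptor chains belong to the same structural family and went the other way. Il12rb1, which the IL-12 and IL-23 receptors share, rose by 0.46 (SE 0.10, limma adjusted p = 0.00342), with readings of 9.40 to 9.49 in USP7-titled arrays against 8.88 to 9.04 in controls. Il12rb2, the chain that couples IL-12 to STAT4, read 8.74, 8.12 and 8.04 in USP7-titled arrays, against 7.91, 7.63 and 7.49 in controls. USP7-titled array 1 stood above its group, and the groups were separated by only the gap between 8.04 and 7.91. The rise of Il12rb2 was 0.62 (SE 0.19, limma adjusted p = 0.0235). Without USP7-titled array 1 it was 0.40 (limma adjusted p = 0.0619), without control array 2 it was 0.60 (limma adjusted p = 0.0747) and without control array 3 it was 0.53 (limma adjusted p = 0.0847). In all, 5 of the 6 measured receptor chains of the IL-6 and IL-12 family were called, 2 higher and 3 lower, beside 32.9% of all genes called. Of these chains 4 lay above the median gene, where 49.4% of all genes were called.

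**Figure D1:**
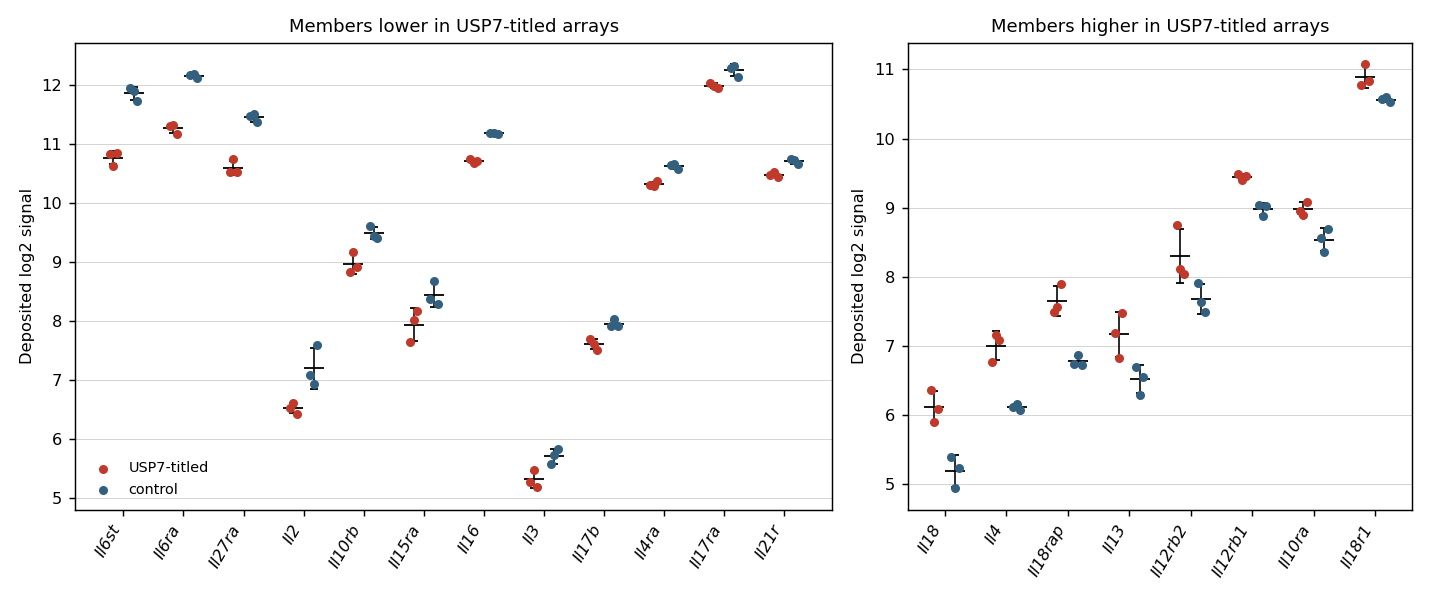
Deposited log2 signal in each array (points) for the 12 members called lower and the 8 called higher, with USP7-titled arrays left of controls for each gene. Horizontal marks are group means and bars SD (n = 3 each); levels of different genes come from different probes and are not comparable. The groups do not overlap for any of the 20 genes, and Il6st, Il6ra and Il27ra have the widest gaps between group means among the 12 falls.

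IL-18 is an IL-1 family cytokine whose receptor joins Il18r1, the binding chain, with Il18rap, the signalling chain. The genes of both chains lie side by side on chromosome 1, and both rose. Il18rap read 7.49, 7.57 and 7.89 in USP7-titled arrays, against 6.74, 6.86 and 6.73 in controls. All 3 USP7-titled arrays lay above all 3 controls, and the change was 0.87 (SE 0.14, limma adjusted p = 0.00049). Il18rap was dim, with controls below the level of 7.53 that 90% of genes restricted to other organs did not reach, so no fold is given. Il18r1, measured well above the median gene, rose by 0.33 (SE 0.09, limma adjusted p = 0.0117). Both kept their calls without any 1 array. The neighbouring IL-1 receptor genes did not pass: the signalling receptor Il1r1 changed by 0.06, the decoy receptor Il1r2 by 0.23 and the IL-36 receptor chain Il1rl2 by -0.28. Il1r2 averaged 8.46 ± 0.26 in USP7-titled arrays and 8.24 ± 0.22 in controls (SD, n = 3 each), with overlapping groups. The shared accessory chain Il1rap changed by 0.05 by its brightest probe set (limma adjusted p = 0.807), but a dimmer probe set fell by 0.71 (limma adjusted p = 0.0175). This was the only member with another probe set called in a direction opposite to its brightest.

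The IL-10 receptor chains parted. Il10rb, which the receptors of IL-10 and IL-22 share, read 8.82, 9.16 and 8.91 in USP7-titled arrays, against 9.61, 9.44 and 9.41 in controls, a change of -0.52 (SE 0.12, limma adjusted p = 0.00478). Il10ra, the chain specific to IL-10, rose by 0.44 (SE 0.12, limma adjusted p = 0.0147), with 8.89 to 9.09 in USP7-titled arrays and 8.36 to 8.69 in controls. The rise of Il10ra rested on 1 of its 3 probe sets: the others changed by -0.19 and -0.17, and the mean of the 3 by 0.02 (limma adjusted p = 0.899). On leaving out control array 2 it shrank to 0.35 (limma adjusted p = 0.0682). On leaving out USP7-titled array 3 it shrank to 0.38 (limma adjusted p = 0.0522).

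Of 6 receptor chains for IL-4, IL-9, IL-13, IL-15 and IL-21, 3 were called lower and 0 higher, beside 15.9% and 17.0% of all genes, and their median change was -0.17. The 3 called chains were those above the median gene, where 22.3% of all genes were lower and 27.1% higher. Il15ra, which presents IL-15 to neighbouring cells, read 7.64, 8.01 and 8.17 in USP7-titled arrays and 8.36, 8.68 and 8.28 in controls. The highest USP7-titled and the lowest control array were close, and the change was -0.50 (SE 0.16, limma adjusted p = 0.0297). It did not pass without control array 1 (-0.55, limma adjusted p = 0.0576), control array 2 (-0.39, limma adjusted p = 0.131) or USP7-titled array 1 (-0.35, limma adjusted p = 0.0924). Il4ra, the receptor chain of IL-4 and IL-13, and Il21r, that of IL-21, are neighbours on chromosome 7. Il4ra fell by 0.31 (SE 0.07, limma adjusted p = 0.00624) and Il21r by 0.24 (SE 0.07, limma adjusted p = 0.0207). The call of Il21r was lost without control array 1 (-0.22, limma adjusted p = 0.0783), control array 2 (-0.23, limma adjusted p = 0.0673) or USP7-titled array 3 (-0.21, limma adjusted p = 0.0696). Scaled to the spikes, Il15ra (-0.35), Il4ra (-0.15) and Il21r (-0.08) did not pass (limma adjusted p = 0.145, 0.254 and 0.573). The IL-9 receptor gene Il9r and the IL-13 receptor genes Il13ra1 and Il13ra2 did not pass, with changes of -0.11, 0.02 and -0.10.

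Among IL-17 receptor chains 1 of 5 passed, beside 32.9% of all genes. Il17ra, the chain common to these receptors, fell by 0.26 (SE 0.06, limma adjusted p = 0.00396), with 11.95 to 12.03 in USP7-titled arrays and 12.13 to 12.32 in controls. Its other probe set changed by -0.16 (limma adjusted p = 0.126), and under spike scaling the gene changed by -0.10 (limma adjusted p = 0.264). Il17rb, part of the IL-25 receptor, averaged 8.13 ± 0.08 in USP7-titled arrays and 8.24 ± 0.02 in controls (SD, n = 3 each) and did not pass (limma adjusted p = 0.485). Il17rc, Il17rd and Il17re changed by 0.05, -0.15 and -0.26 without passing. The chains for IL-3 and IL-5 (Il3ra, 0.35, limma adjusted p = 0.13; Il5ra, -0.26, limma adjusted p = 0.232) and Il1rapl2, a neuronal relative of the IL-1 receptor (-0.07), complete the receptors.

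Ligand genes were mostly dim. As a yardstick for the signal of genes not expected in T cells, 42 measured genes restricted to organs such as liver, pancreas or retina were used. Of these, 90% lay below 7.53 on the log2 scale, and the highest mean was 9.89. The yardstick is not pure background: 1 of its genes was called higher and 4 lower (11.9% in all, beside 32.9% of all genes). Changes in it ran from -1.55 to 1.35. Of the 30 ligands 28 lay below that level, against 12 of the 28 receptor chains. Changes at such levels are compressed by background, and no detection call was analysed here. The probes of different genes differ in efficiency, so this compares signal with background and not amounts of transcript.

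Il18, the cytokine for the receptor described above, read 6.36, 5.89 and 6.08 in USP7-titled arrays, against 5.39, 4.94 and 5.22 in controls. It rose by 0.93 (SE 0.16, limma adjusted p = 0.00106), with groups that did not overlap. Il4, the cytokine that directs type 2 helper T cells and antibody switching, read 6.76, 7.15 and 7.09 in USP7-titled arrays and 6.12, 6.16 and 6.07 in controls. The controls were tight, and all USP7-titled arrays lay above them, a change of 0.88 (SE 0.13, limma adjusted p = 0.00043).

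Il13, the neighbour of Il4 on chromosome 11 and a driver of mucus and allergic responses, read 7.19, 6.82 and 7.48 in USP7-titled arrays, against 6.69, 6.29 and 6.55 in controls. Its rise was 0.65 (SE 0.18, limma adjusted p = 0.0143) and was lost without control array 2 (0.54, limma adjusted p = 0.0697). Il5, the eosinophil cytokine of the same gene cluster, changed by 0.26 with overlapping groups (limma adjusted p = 0.321). Il18, Il4 and Il13 thus rose within the signal range of the tissue-restricted genes in both groups. Each of these rises was measured by 1 probe set.

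Of the ligands that fell, Il16 alone lay above the median gene. Il16, a chemoattractant that binds CD4, read 10.75, 10.68 and 10.71 in USP7-titled arrays, against 11.17, 11.18 and 11.16 in controls. Both groups were tight, and the change of -0.46 (SE 0.06, limma adjusted p = 0.000137) recurred in its other probe set (-0.57, limma adjusted p = 0.000279). Il2, the growth factor on which Treg depend and which Foxp3 is known to repress, read 6.53, 6.61 and 6.42 in USP7-titled arrays and 7.08, 6.92 and 7.59 in controls. It fell by 0.67 (SE 0.17, limma adjusted p = 0.00958), also within the background range on average. Its neighbour Il21, the cytokine of follicular helper T cells, changed by -0.34 without passing (limma adjusted p = 0.0771). Il3, a growth factor of blood cell precursors, and Il17b, an IL-17 family cytokine, changed by -0.39 and -0.35 (limma adjusted p = 0.0401 and 0.0374). Both calls were fragile: Il3 was lost without control array 2 (limma adjusted p = 0.112), control array 3 (0.137), USP7-titled array 1 (0.076) or USP7-titled array 3 (0.11). Il17b was lost without any control array (limma adjusted p = 0.0807, 0.133 and 0.0722) and without USP7-titled array 2 (0.0752) or 3 (0.102).

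The other 23 ligands did not pass, and their changes ran from -0.34 to 0.31. They included the inflammatory cytokines Il1a (-0.01), Il1b (-0.06) and Il6 (-0.02) and the Th17 cytokine Il17a (0.01). Il17a read 3.66 to 3.78 in USP7-titled arrays and 3.67 to 3.73 in controls, so the groups overlapped at the bottom of the scale. Il9 (-0.30) and Il21 had groups that did not overlap. Of the IL-12 family subunits, Il12b changed by -0.22 (limma adjusted p = 0.227), and Il12a and Il23a had limma adjusted p of 0.994 and 0.94. The rest were Il7, Il11, Il15, Il17d, Il20, Il24, Il25, Il33, Il34 and the IL-36 and IL-38 genes Il1f6, Il1f8, Il1f9 and Il1f10. The soluble inhibitors also did not pass: the IL-1 receptor antagonist Il1rn changed by -0.39 (limma adjusted p = 0.0549), the IL-18 binding protein Il18bp by -0.26 (limma adjusted p = 0.205), and the IL-36 receptor antagonist Il1f5 had overlapping groups (limma adjusted p = 0.997). The enzyme gene Il4i1, an amino acid oxidase induced by IL-4, changed by -0.21 (limma adjusted p = 0.285).

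**Figure D2:**
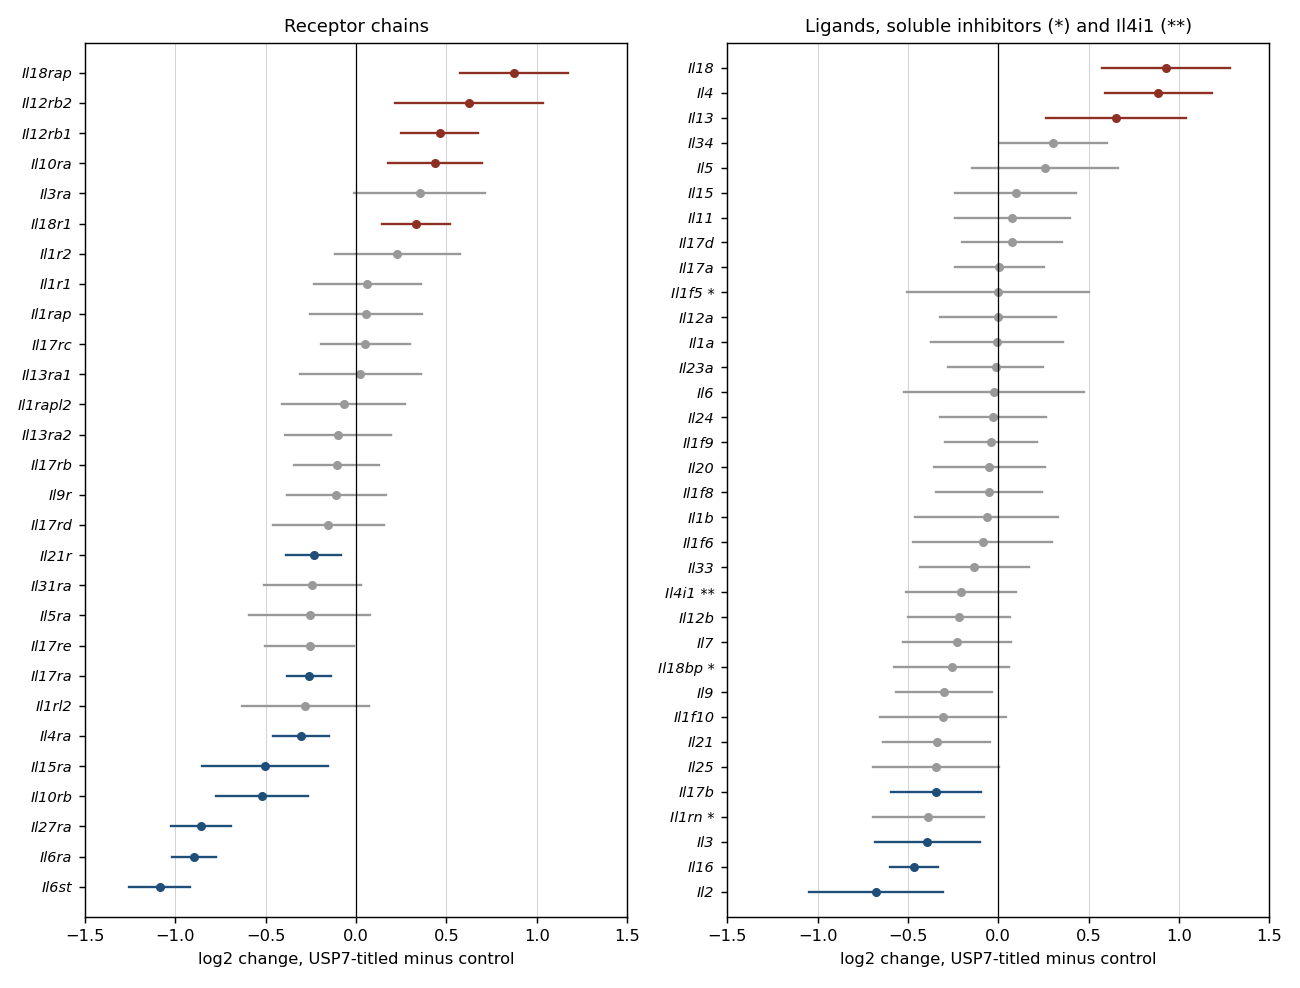
The log2 change, USP7-titled minus control, of all 62 members with 95% intervals from limma; receptor chains are on the left, ligands, soluble inhibitors and Il4i1 on the right. Red marks genes called higher, blue genes called lower and grey the rest; Il18rap and Il18 stand at the top, Il6st and Il2 at the bottom.

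Ligands and receptors were then set against each other as counts, without a test, since the members were chosen by name with earlier results known. Of the receptor chains 13 of 28 (46.4%) were called, 5 higher and 8 lower, and of the ligands 7 of 30 (23.3%), 3 higher and 4 lower, beside 32.9% of all genes. The median change was -0.11 over receptors and -0.04 over ligands, against -0.05 over all genes. Signal level separated the classes as well: 13 receptor chains but 1 ligand lay above the median gene. Above it, 11 of 13 receptor chains were called, 3 higher and 8 lower, beside 49.4% of all such genes (27.1% higher and 22.3% lower). At or below it, 2 of 15 receptor chains and 6 of 29 ligands were called, beside 16.4% of all such genes. The groups did not overlap in 16 receptor chains and 9 ligands, beside 45.6% of all genes, and the exact permutation p of each such member was 0.1, the smallest that 3 against 3 arrays allow.

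Over all members 8 were called higher and 12 lower (12.9% and 19.4%), beside 17.0% and 15.9% of all genes. The balance depends on the scaling. Scaled to the spikes, 10 members were higher and 6 lower, while the median of all genes moved to 0.11. The members that then passed as higher in addition were Il34 (0.46) and Il3ra (0.51), and Il15ra, Il17b, Il17ra, Il21r, Il3 and Il4ra no longer passed. Without control array 2, 5 members were higher and 8 lower.

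**Figure D3:**
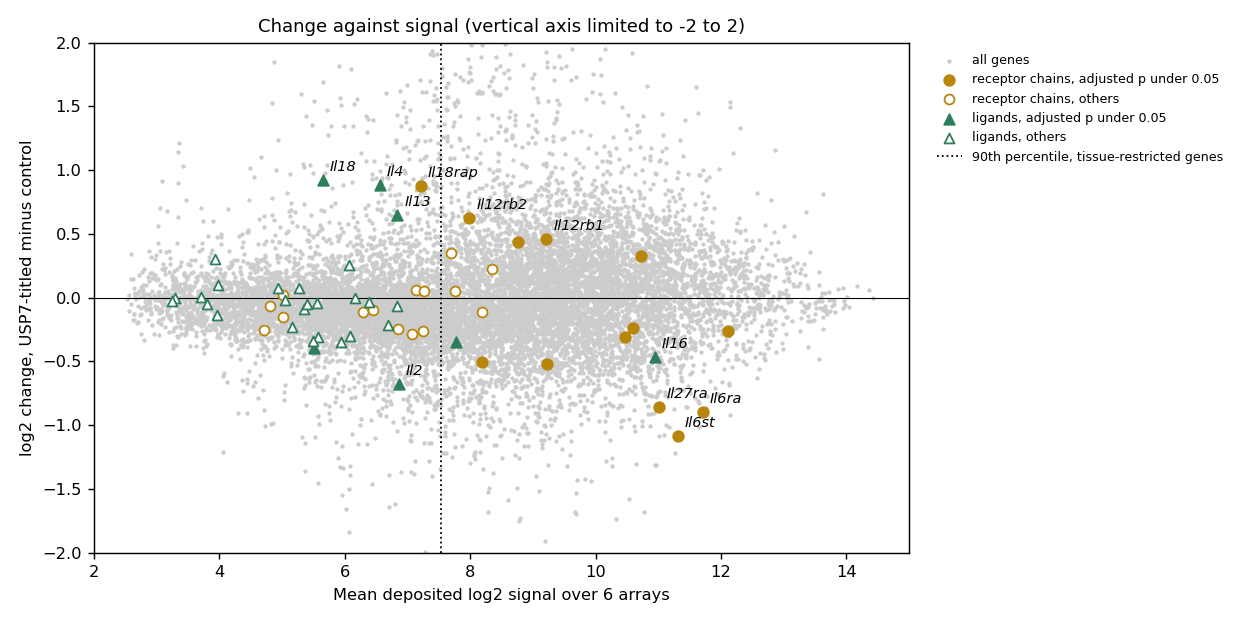
The log2 change, USP7-titled minus control, against the mean deposited log2 signal over 6 arrays for all genes (grey), receptor chains (circles) and ligands (triangles); filled symbols passed at adjusted p under 0.05, and genes beyond -2 or 2 are not drawn. The dotted line at 7.53 is the level below which 90% of tissue-restricted genes lay: 28 of 30 ligands stand left of it, and Il6st, Il6ra and Il27ra far right of it.

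Genes that carry interleukin signals inside the cell were counted from hand-written lists. In the list of Janus kinases, STAT factors and their regulators 3 of 28 were higher (10.7%) and 9 lower (32.1%), with a median change of -0.18. Of these genes 26 lay above the median gene in controls, where 27.1% of all genes were higher and 22.3% lower. Jak1, the kinase bound to gp130 and to many other interleukin receptors, read 11.32, 11.12 and 11.17 in USP7-titled arrays, against 11.82, 11.86 and 11.72 in controls (-0.60, SE 0.07, limma adjusted p = 4.61e-05). Both of its other probe sets fell too, by 0.57 and 0.39. Stat6, which relays IL-4 and IL-13, fell by 0.49 (SE 0.06, limma adjusted p = 0.000124), the adaptor Sh2b3, an inhibitor of cytokine signalling, by 0.70 (limma adjusted p = 0.000207) and the suppressor Socs4 by 0.41 (limma adjusted p = 0.00973). Both dimmer probe sets of Socs4 did not pass. Under spike scaling the counts of the list were 3 higher and 3 lower. Without USP7-titled array 1 they were 1 higher and 5 lower, and 1 was higher also without control array 1, control array 2 or USP7-titled array 3. Stat3, the main factor downstream of gp130, picked after its value was seen, changed by only -0.20 (limma adjusted p = 0.0433). Its call was lost without each array but control array 3, with limma adjusted p from 0.0559 to 0.156. Its other bright probe set fell by 0.25 (limma adjusted p = 0.0299), and a dim probe set changed by 0.17 without passing.

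In the list of IL-1 and IL-17 receptor signalling 2 of 22 were higher (9.09%) and 8 lower (36.4%), with a median of -0.15. Of these genes 19 lay above the median gene in controls, where 27.1% of all genes were higher and 22.3% lower. Under spike scaling 4 were higher and 3 lower, and without control array 3 or USP7-titled array 2 it was 1 higher and 5 lower in each. The kinase Irak1, recruited to IL-1 and IL-18 receptors, fell by 0.76 (SE 0.11, limma adjusted p = 0.000287). Its 3 other probe sets changed by -0.34, -0.67 and -0.30, of which the largest passed. Nfkbiz, an IL-1 and IL-17 induced cofactor of NF-kappaB, fell by 0.75 (limma adjusted p = 3.07e-05), and Ikbkb, the kinase that releases NF-kappaB, by 0.74 (limma adjusted p = 4.65e-05), with each of its 4 probe sets between -0.74 and -0.82. Tradd, an adaptor of the TNF receptor that the hand-written list also holds, rose by 0.49 (limma adjusted p = 0.00432). Irak1, Nfkbiz, Ikbkb, Jak1, Stat6 and Sh2b3 changed in the same direction under spike scaling, by -0.60, -0.59, -0.58, -0.44, -0.33 and -0.55.

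Among cytokines and receptors of these families whose symbols do not begin with Il, 6 of 26 were higher and 6 lower (23.1% each), beside 17.0% and 15.9% of all genes, with a median of -0.09. Under spike scaling 7 were higher and 3 lower. Clcf1, a cytokine that acts through gp130, read 9.38, 9.77 and 10.10 in USP7-titled arrays, against 11.34, 11.38 and 11.26 in controls. It fell by 1.58 (SE 0.14, limma adjusted p = 1.05e-05), with its other probe sets at -1.55 and -1.22. Lif, another gp130 cytokine, went the other way, with 9.78, 9.20 and 9.27 in USP7-titled arrays and 8.03, 8.11 and 7.92 in controls (1.40, SE 0.15, limma adjusted p = 3.81e-05). Interferon gamma (Ifng), the product that IL-12 and IL-18 are known to induce, rose by 1.60 (SE 0.19, limma adjusted p = 6.52e-05), and Csf1r, the growth factor receptor of macrophages, by 1.99 (SE 0.34, limma adjusted p = 0.000913). The other probe sets of Csf1r disagreed, with changes of 1.21 and 0.03. Ebi3, the subunit that joins with p28 to form IL-27 and with Il12a to form IL-35, was picked after its value was seen. It read 10.46, 10.53 and 10.60 in USP7-titled arrays against 9.49, 9.58 and 9.43 in controls, a rise of 1.03 (SE 0.08, limma adjusted p = 4.75e-06).

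Markers of other cells moved in the same arrays. The shares below stand beside 17.0% of all genes higher and 15.9% lower. Of 29 myeloid markers 16 were higher (55.2%) and 1 lower (3.45%; Cybb, -0.52, limma adjusted p = 0.013). Their summed signal, taken back to the linear scale, was 6451 to 8053 in USP7-titled arrays and 2667 to 3135 in controls, and 13 stayed below 7.53 in all arrays. C1qb and Lyz1, made by macrophages, rose by 2.86 and 2.48, and Lyz2, the brightest of the list, by 1.65. The other probe sets of C1qb changed by 3.18 and 1.81, and those of Lyz1 by 2.31 and 0.00268. Of 15 CD8 T and NK cell markers 5 were higher (33.3%) and 2 lower (13.3%), with sums of 8741 to 9061 in USP7-titled arrays and 4056 to 4127 in controls and 6 below 7.53 throughout. The cytotoxic genes Gzma and Nkg7 rose by 3.21 and 2.76. The other higher genes of the list were Tyrobp (1.85, limma adjusted p = 1.73e-07), Fcer1g (0.95, 0.000117) and Gzmk (0.58, 0.00966). Gzmk did not pass without control array 2. The median of the list was nevertheless -0.10: the pore-forming Prf1 fell by 0.45 and the chemokine Xcl1 by 0.80, and Cd8a changed by 0.02. The NK cell receptor Ncr1 was dim, with averages of 3.84 in USP7-titled arrays and 3.99 in controls, as were Klrc1 (4.40 and 4.72) and Klrk1 (5.14 and 5.40). Of 13 dendritic cell markers 6 were higher (46.2%) and 1 lower (7.69%), with sums of 5727 to 6135 in USP7-titled arrays and 4430 to 4636 in controls and 6 below 7.53 throughout. Tcf4, Clec10a, Bst2 and Cst3 rose by 1.005, 0.98, 0.63 and 0.44, though 3 of the 5 other probe sets of Tcf4 changed by 0.05 to 0.13. The dendritic cell marker that fell was Zbtb46 (-0.96, limma adjusted p = 0.000394), with its other probe sets at -1.02 and -0.39. Macrophages and dendritic cells are known sources of IL-18, and NK cells carry IL-12 and IL-18 receptors; the part of these cells in the rises of Il18, Il18rap, Il18r1, Il12rb1, Il12rb2, Il10ra, Lif, Ebi3 and Ifng was not tested.

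Mast cells, basophils and innate lymphoid cells can make IL-4 and IL-13. Of 15 markers of these cells 1 was higher (6.67%) and 0 lower, beside 17.0% and 15.9% of all genes, and 12 stayed below 7.53 in all arrays. Their sums were 4281 to 4383 in USP7-titled arrays and 4007 to 4116 in controls. The gene that rose, Rora (0.48, limma adjusted p = 0.00352), is also active in T cells, and Klrg1, the other bright gene of the list, changed by 0.03. Cpa3, Fcer1a and Ms4a2, which define mast cells and basophils, averaged 5.55, 4.67 and 4.26 in USP7-titled arrays and 5.59, 4.57 and 4.37 in controls. Hdc, also of this list, changed by -0.19 by its brightest probe set without passing, but its dimmer probe set rose by 0.67 (limma adjusted p = 0.0163). The part of these cells in the rises of Il4 and Il13 was not tested. Of 14 B cell markers 3 were higher (21.4%: Ms4a1 0.998, Spib 0.93, Pou2af1 0.91) and 2 lower (14.3%: Cd72 -1.49, Cr2 -0.59). Cd79b changed by 0.23 without passing (limma adjusted p = 0.19). Ms4a1 lost its call without control array 1 (limma adjusted p = 0.0815) or USP7-titled array 2 (0.0665), and its other probe set (0.34) did not pass. Of 14 stroma and endothelium markers 1 was higher (7.14%: Cdh5 0.68) and 2 lower (14.3%: Pecam1 -0.66, Epcam -0.58). The sums of these 2 lists were lower in USP7-titled arrays (2403 to 2497 and 2062 to 2226) than in controls (2667 to 2701 and 2632 to 2758). Of 15 T cell identity genes, all above the median gene in controls, 1 was higher and 9 lower, beside 27.1% and 22.3% of such genes. Under spike scaling 2 were higher and 3 lower, and without control array 2 it was 1 higher and 5 lower. Zap70 rose by 0.48 by its brightest probe set, while its other probe set fell by 0.41, and Cd3d changed by -0.07. The array format gives no reading of 0, so a marker below 7.53 is only dim.

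**Figure D4:**
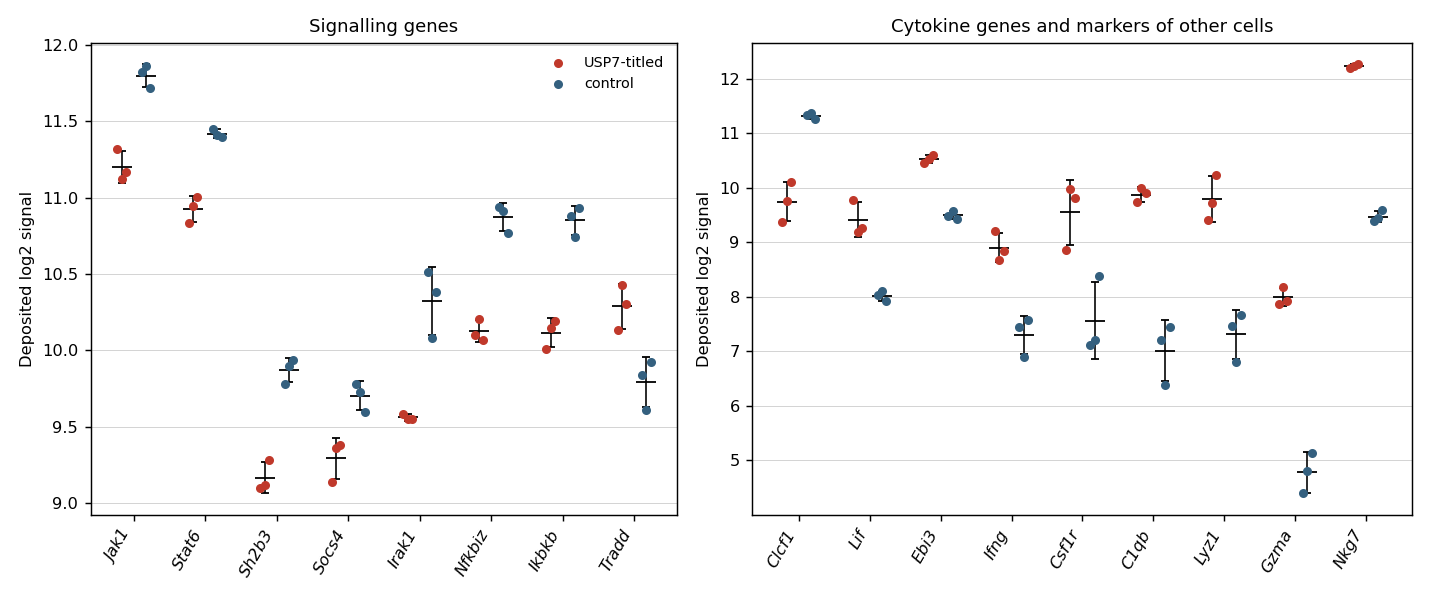
Deposited log2 signal in each array (points) for named signalling genes on the left and for cytokine genes and markers of other cells on the right, with USP7-titled arrays left of controls for each gene. Horizontal marks are group means and bars SD (n = 3 each). Jak1, Stat6, Irak1, Nfkbiz, Ikbkb and Clcf1 lie lower in USP7-titled arrays, and Lif, Ebi3, Ifng and the macrophage and cytotoxic markers lie higher.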

How the data were processed

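The authors deposited 1 log2 expression value per probe set and array. How these were summarised and normalized is not given in the sources used here; that the log has base 2 was read from the values (2.21 to 14.47 over gene probe sets). From each sample 100 ng of total RNA was amplified and labelled with biotin, per the labels' protocols. A platform annotation table gave 20380 of 22690 probe sets a single symbol; 64 array controls, 691 probe sets with several symbols and 1555 with none named no gene. A gene was read from its brightest probe set, by the mean of the 6 arrays; adjusted p of other probe sets comes from a fit over all probe sets. Titles gave each array its group.

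The groups were compared by limma (version 3.58.1, R 4.3.3), using lmFit and eBayes with a mean-variance trend. Tests were two-sided, p was adjusted over 12393 genes by Benjamini and Hochberg's method, and the threshold was 0.05; results are printed for the members and for named genes of the lists. Changes are USP7-titled minus control. The number of arrays, 3 a group, limits the precision; the median residual SD was 0.136. On simulated data of 12393 genes, 200 of them changed, the fit recovered 43.3%, 82.1% and 100.0% of log2 changes of 0.5, 1 and 2. In the arrays 32.9% of genes were called. The p adjustment is harsher when few genes change, so the simulated rates cannot be read as the sensitivity of the real comparison. The members, roles and lists were chosen with earlier results of these data known. Values per array are given for members past the threshold by 0.5 or more on the log2 scale. Up to 4 genes are named per signalling list, and from each marker list the 2 genes with the largest changes and the 2 brightest. Further genes were chosen after their values were seen (Treg genes, Xcl1, Ncr1, Klrc1, Klrk1, Cd8a, Cpa3, Fcer1a, Ms4a2, Stat3, Ebi3). Zbtb46, Cybb, Tyrobp, Fcer1g, Gzmk, Spib, Pou2af1, Cr2 and Hdc were also named after their values were seen. Alternatives were other scalings, filters, probe set rules, test settings, thresholds, the replicate block, genes on X and Y left out, and each array left out. The reference served for names, neighbours and promoter windows; the sources name no build for the arrays.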

Additional observations from a re-analysis of the deposited data

How the results depend on the processing

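As deposited, 20 members were called, 8 higher and 12 lower, with median changes of -0.11 over receptor chains and -0.04 over ligands. Scaled to the 18 spike probe sets, 6 members were lower, and the medians were 0.050 and 0.12 beside 0.11 for all genes. Without the 40% dimmest genes 19 members remained in the test, 4 were called higher, and the ligand median, over 2 ligands, was -0.40; without genes below the tissue-restricted level, an alternative chosen after seeing the data, 4 were also called higher. At a threshold of 0.01, 12 members were called, 4 of them higher. Leaving out 1 array at a time gave 13 to 21 calls, with 5 to 9 higher and 8 to 13 lower; the lowest counts came without control array 2. Over these settings the receptor median ran from -0.16 to -0.07 and the ligand median from -0.10 to -0.02. The labels do not say whether same-numbered arrays were paired. Such arrays deviated with correlations of 0.08, -0.06 and 0.09, which cannot settle how the samples were matched. With the replicate block 20 members were called. Of 374 values of called members under alternatives, 331 kept their direction and call, 43 kept their direction only and 0 reversed. Of the 20 members, 10 kept their call in each alternative that tested them, Il6st, Il6ra and Il27ra among them; Il18, Il18rap, Il4 and Il2 were not tested without the dimmest genes. Quantile normalization ended the calls of Il17b and Il3, and averaging probe sets those of Il10ra and Il4ra. The 28 ligands with signal below 7.53 are limited by background.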
